A study of Homo sapiens with 6 samples.

Results

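The 7 megabases described here lie at or near chromosome ends, in hg19 coordinates at chr16 0-1000 kb, chr1 1000-2000 kb, chr19 0-1000 kb, chr19 1000-2000 kb, chr8 145000-146000 kb, chr9 139000-140000 kb and chr11 0-1000 kb. Below they go by their chromosome, and on chr19 as 0-1 Mb and 1-2 Mb. They were selected on their high numbers of TRIM24 peaks, so those numbers are a description and support nothing. A peak was a member when its midpoint fell in one of them, and counting any overlap with the window gave the same members. Members numbered 1042 of 37470 peaks over 3 lists, 2.78% of all peaks: 305 of 9744 in LNCaP with vehicle, 161 of 7105 in LNCaP with dihydrotestosterone (DHT) and 576 of 20621 in LNCaP-abl with vehicle.

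The lists come from chromatin immunoprecipitation and sequencing (ChIP-seq) with a TRIM24 antibody in established human prostate cancer lines. LNCaP, an androgen-responsive line from a lymph node metastasis, was starved of hormone for 72 h in serum stripped with charcoal and dextran, then exposed over 4 h to ethanol vehicle or to the androgen DHT at 10 nM. LNCaP-abl, an androgen-independent derivative of LNCaP, was kept in stripped serum throughout and given ethanol vehicle for 4 h. Each condition had 1 library, so differences between lists have no replicate check and were not tested, and line and culture history cannot be told apart. The peak lists hold no read numbers and the depth behind them is unknown. More cells with TRIM24 at a site and more TRIM24 per cell cannot be told apart either. The 3 input libraries of the series were not analysed here.

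TRIM24 reads chromatin through a PHD finger and a bromodomain, which bind the tail of histone H3 when it lacks methylation at one lysine and carries acetylation at another. It acts as a coregulator of nuclear receptors, among them the androgen receptor. Bands near the ends of several human chromosomes are rich in GC bases and in short, closely set genes, and in many cell types they hold much open, transcribed chromatin.

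The label of gene-dense ends was checked on the order of protein-coding genes in RefSeq (assembly GRCh38.p14), with no coordinates carried over to hg19. All 44 landmark genes looked up were found on the chromosome their megabase belongs to. Their place at or beside these hg19 megabases is general knowledge and was not checked. They include HBA1 and HBA2 (alpha-globin) and AXIN1 (a scaffold of the beta-catenin destruction complex) at the chr16 end, DVL1 (Wnt signalling) on chr1, STK11 (a tumour suppressor kinase) and ELANE (neutrophil elastase) on chr19. HSF1 (the heat shock transcription factor) and DGAT1 (triglyceride synthesis) mark the chr8 end, NOTCH1 (a receptor) and TRAF2 (signalling from tumour necrosis factor receptors) the chr9 end, and HRAS (a small GTPase) and IRF7 (an interferon regulatory factor) the chr11 end. The median step from one gene start to the next was 7.90 kb on the chr16 stretch between its outermost landmarks, 10.1 kb on chr9, 10.6 kb on chr11, 12.9 kb on chr8, 15.7 kb on chr1 and 17.4 kb on chr19. Over all protein-coding neighbours it was 51.7 kb, so every stretch was denser in genes than the genome's median. No hg19 annotation or sequence was used here, so peaks are named by position and assigned to no gene.

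The vehicle list held 50 peaks in the chr16 megabase, 45 in the chr1 megabase, 44 in chr19 0-1 Mb, 44 in chr19 1-2 Mb, 43 in the chr8 megabase, 41 in the chr9 megabase and 38 in the chr11 megabase. The DHT list held 29, 23, 15, 25, 19, 29 and 21 peaks in the same order. The LNCaP-abl list held 72, 81, 68, 129, 84, 72 and 70. The vehicle counts were alike across the megabases, the DHT counts were lowest in chr19 0-1 Mb, and LNCaP-abl stood out in chr19 1-2 Mb. Over the 2483 megabases with a peak in any list, the mean number of peaks was 3.92 in vehicle, 2.86 in DHT and 8.31 in LNCaP-abl.

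By the sum of the lists, chr19 1-2 Mb ranked first of all megabases with 198 peaks, and the lowest of the 7, chr19 0-1 Mb, ranked at 8 with 127. Just outside the choice were chr16 2-3 Mb with counts of 30, 20 and 70 in the order vehicle, DHT and LNCaP-abl, and chr9 140-141 Mb with 38, 23 and 56. The megabase chr17 79-80 Mb had 36, 19 and 75 and was not chosen, although its sum of 130 lay above those of the chr11 megabase (129) and of chr19 0-1 Mb. The 7 are therefore not a strict top of the ranking.

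**Figure D1:**
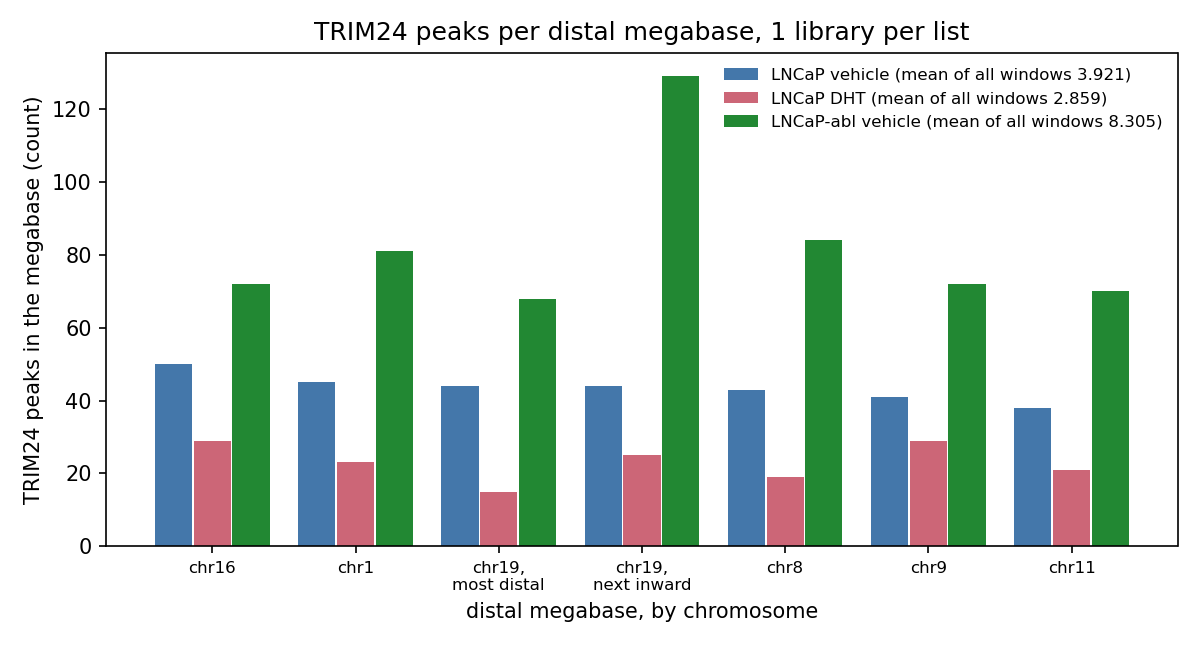
Number of TRIM24 peaks (vertical axis, count) in each of the 7 megabases (horizontal axis) for the 3 lists, 1 library each, with no error bars. The LNCaP-abl bar is the tallest in every megabase, up to 129 peaks in chr19 1-2 Mb, and the DHT bar is the shortest, down to 15 peaks in chr19 0-1 Mb.

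The members made up 3.13% of the vehicle list (exact 95% interval 2.79% to 3.50%), 2.27% of the DHT list (1.93% to 2.64%) and 2.79% of the LNCaP-abl list (2.57% to 3.03%). Here and below, intervals are exact Clopper-Pearson intervals that cover counting error only and treat neighbouring peaks as independent, which they are not. The DHT list thus placed a smaller share of its peaks here than the vehicle list did, a comparison that rests on the counts by which the megabases were chosen.

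For each 100 vehicle peaks the members counted 52.8 DHT peaks, against 73.6 over the rest of the lists. The ratio ran from 34.1 in chr19 0-1 Mb, through 44.2 in the chr8 megabase and 51.1 in the chr1 megabase, to 70.7 in the chr9 megabase, so all 7 lay below the rest. It was 50.9 in the flanking megabases next to the 7, and 67.0 in the 20 other megabases with the most peaks. The lower number of DHT peaks was therefore as marked next door as inside. With every list shortened to its 7105 best-scoring peaks, members numbered 197, 161 and 176, and the ratio was 81.7 for the 7, 76.1 for the flanks and 98.96 for the 20 others.

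LNCaP-abl peaks numbered 1.89 times the vehicle peaks, against 2.12 times over the rest of the lists. The ratio was 1.44 in the chr16 megabase, 1.55 in chr19 0-1 Mb and 1.95 in the chr8 megabase, and 2.93 in chr19 1-2 Mb. Only the last of the 7 lay above the rest in the full lists. With lists of equal length 3 did, at 1.22 in the chr11 megabase, 1.11 in the chr8 megabase and 1.04 in chr19 1-2 Mb against 1.003 over the rest.

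The deposited score of a peak is the authors' own and is taken here as a significance on the −log10 scale, as MACS2 writes it; the lists do not name the scale. Scores of different libraries are not on one scale, so each peak was placed by its percentile within its own list, where 100 is the highest score. Vehicle members had a median percentile of 39.5 (95% interval 33.9 to 46.3) and LNCaP-abl members one of 40.35 (36.9 to 46.5), both below their lists' middle. DHT members stood above it, at 60.5 (47.6 to 66.7), with an interval that held the list's middle. The rest of the lists had medians of 50.3 in vehicle, 50.2 in LNCaP-abl and 49.5 in DHT. The many vehicle and LNCaP-abl peaks of these megabases thus leaned to the weak side of their lists, and the fewer DHT peaks did not.

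In score units the members' median was 5.80 in vehicle, 7.84 in DHT and 17.0 in LNCaP-abl, and the whole lists' medians were 6.46, 6.82 and 26.1. The lowest-scoring 25% of each list took 31.5% of vehicle members, 23.6% of DHT members and 35.4% of LNCaP-abl members. The highest-scoring 10% took 7.54%, 12.4% and 9.20%. The best members were still among the strongest TRIM24 peaks of the genome, with ranks from the top of 9 in vehicle (score 137.6), 7 in DHT (120.5) and 8 in LNCaP-abl (678.0). Of the top 100 peaks of each list, members took 5 in vehicle, 6 in DHT and 5 in LNCaP-abl.

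**Figure D2:**
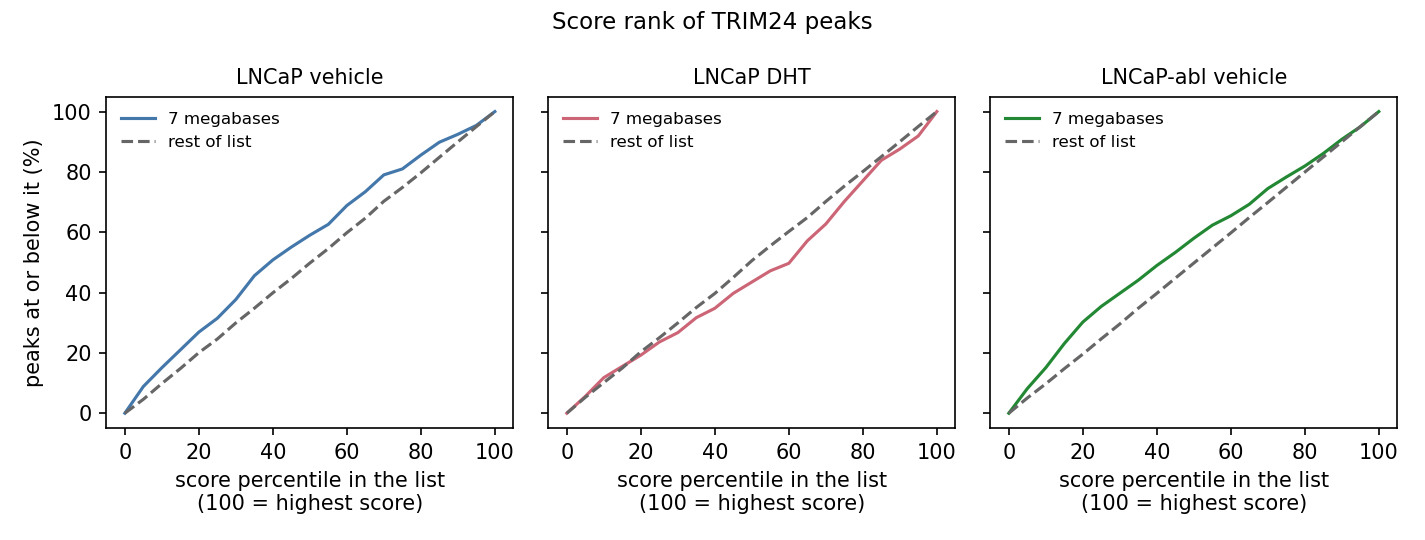
Share of peaks (vertical axis, %) at or below each score percentile of the list (horizontal axis, 100 = highest score), for the members (solid) and the rest of the list (dashed), 1 panel per list. The vehicle and LNCaP-abl members' curves run above the dashed line, with medians of 39.5 and 40.35, and the DHT curve runs below it over most of its length, with a median of 60.5.

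The vehicle median was below the list's middle in 6 of the 7 megabases, from 34.45 in the chr8 megabase to 46.3 in the chr9 megabase, and it was 54.1 in chr19 1-2 Mb. The LNCaP-abl median was below it in all 7, from 35.2 in chr19 1-2 Mb to 47.45 in the chr16 megabase. The DHT medians spread more widely. They were below the middle in the chr9 (38.75), chr11 (40.25) and chr16 (46.8) megabases and reached 72.8 in the chr8 megabase. Without the chr8 megabase the median of all DHT members was 53.5. In the chr8 megabase the DHT peaks were few and high, 19 in number with 5 in the highest-scoring 10% of their list. LNCaP-abl had 16 of its 84 peaks of that megabase in the highest-scoring 10% too. The flanking megabases had medians of 44.8 (vehicle), 46.8 (DHT) and 41.9 (LNCaP-abl), and the 20 other peak-rich megabases 47.8, 54.7 and 47.8.

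Members were about as wide as other peaks of their list. The median width was 287 bp in vehicle (251 to 317), 312 bp in DHT (271 to 331) and 490 bp in LNCaP-abl (444 to 550), against 298, 295 and 528 bp over the rest. The LNCaP-abl median depended on the peaks kept and was 1113 bp in the list cut to 7105 peaks. By megabase the vehicle medians ran from 235 bp in chr19 1-2 Mb to 340 bp in the chr8 megabase, the DHT medians from 255 to 338 bp, and the LNCaP-abl medians from 439 bp in chr19 0-1 Mb to 643.5 bp in the chr11 megabase. The lowest LNCaP-abl median was above the highest LNCaP median. Members covered 108.7 kb in vehicle, 57.2 kb in DHT and 389.6 kb in LNCaP-abl.

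Peaks wider than 1 kb were 129 of the 576 LNCaP-abl members, 22.4%, beside 18.9% of the whole list. They were 3 of the vehicle members (0.984%, beside 1.09%) and 1 of the DHT members (0.621%, beside 0.929%). The vehicle and DHT shares lay near the background. The LNCaP-abl share was above that of its list, as it was in the flanks (22.0%) and the 20 other peak-rich megabases (21.8%). At the other end, 72 vehicle members (23.6%) had the narrowest width in the lists, 200 bp, against 16.4% of the whole vehicle list. In DHT these were 20 members (12.4%, whole list 13.5%) and in LNCaP-abl 55 (9.55%, whole list 6.48%). LNCaP-abl members over 2 kb numbered 18 (3.13%, whole list 1.16%). The flanks were similar, with 22.6% of vehicle peaks and 8.64% of LNCaP-abl peaks at 200 bp and 2.51% of LNCaP-abl peaks over 2 kb, and the 20 other peak-rich megabases gave 18.1%, 7.92% and 1.82%. An excess of both the narrowest and the widest LNCaP-abl peaks over the whole list was therefore seen in all 3 sets.

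The widest members show how a wide peak of one list can span several peaks of another. In LNCaP-abl the widest was chr9:139741233-139744673, 3441 bp with a score of 95.2, and it overlapped 2 vehicle and 2 DHT peaks. In vehicle it was chr1:1290538-1292361, 1824 bp with a score of 50.6, which overlapped a DHT peak of 931 bp and a LNCaP-abl peak of 2418 bp. In DHT it was chr19:1566750-1567751, 1002 bp with a score of 8.71, which overlapped 2 vehicle peaks and a LNCaP-abl peak of 2089 bp. A LNCaP-abl member with a vehicle partner was wider than the widest partner in 206 of 217 cases (94.9%, rest of the list 94.8%), with a median ratio of 2.55. Of the 217, 36 had at least 2 vehicle partners (16.6%, rest of the list 14.5%). Against DHT the ratio was 3.11, with 97.8% wider, beside 93.6% over the rest. The ratios over the rest of the list were close, 2.40 and 2.59.

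Peaks were also compared by overlap of at least 1 bp between lists, which the choice of megabases did not use directly, although the share depends on how many peaks each list holds. Of the vehicle members, 117 overlapped a DHT peak, 38.4% (32.9% to 44.1%), beside 48.6% of the whole list. Since low-scoring peaks are shared less often, the rest of the list was also weighted to the members' score deciles, which gave 44.2%, just above the interval's upper end. The direction depended on the peaks taken: among the better-scoring 50% of each list the members' share was 48.8% and the rest's 46.4%. Under a reciprocal rule, by which partners must each cover 50% or more of the other, the members' share was 24.3% and the rest's 32.7%. In the flanking megabases 32.55% of vehicle peaks were shared with DHT, and in the 20 other peak-rich megabases 47.4%.

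The reverse share was higher than the list's. Of the 161 DHT members 116 overlapped a vehicle peak, 72.05% (64.4% to 78.8%), beside 66.7% of the whole list and 69.0% after weighting, so the interval held both. Under the reciprocal rule the members' share was 46.0% and the rest's 44.5%. The flanks gave 63.0% and the 20 other megabases 69.9%. By overlap of at least 1 bp, most DHT peaks of these megabases were sites that the vehicle list also held, as over the whole DHT list. The low share of vehicle members with a DHT peak came with a vehicle list that had many more peaks here, a link that was not tested. With lists of equal length that share was 50.8%, against 57.7% for the rest.

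Nearly all DHT members lay where LNCaP-abl also had a peak. They numbered 154 of 161, 95.7% (91.3% to 98.2%), beside 88.8% of the whole list, 88.7% after weighting, 86.1% in the flanks and 84.8% in the 20 other megabases. All 23 DHT peaks of the chr1 megabase, all 19 of the chr8 megabase and all 21 of the chr11 megabase overlapped a LNCaP-abl peak, and the lowest share was 89.7% in the chr9 megabase. The excess remained with lists of equal length, at 77.0% against 66.1% for the rest. It also remained in the better-scoring 50% of each list (87.9% against 77.9%) and with partners under 1 kb away counted (96.3% against 90.55%). The excess nonetheless depended on how the overlap was measured. With all peaks set to 400 bp the share was 79.5% against 78.8% for the rest, and under the reciprocal rule it was 18.0% against 24.65%. Vehicle members overlapped a LNCaP-abl peak in 256 of 305 cases, 83.9% (79.3% to 87.9%), beside 88.4% of the whole list and 87.2% after weighting. Among the better-scoring 50% of each list that order turned, with 85.8% of members and 83.65% of the rest. With the reciprocal rule it was 19.3% against 26.5%.

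In the other direction, 217 LNCaP-abl members overlapped a vehicle peak, 37.7% (33.7% to 41.8%), beside 36% of the whole list and 31.7% after weighting. With lists of equal length it was 64.2% against 60.9% for the rest, whereas under the reciprocal rule it lay below the rest, at 10.2% against 12.5%. Without chr19 1-2 Mb the share was 42.5%. In that megabase 27 of 129 LNCaP-abl peaks had a vehicle partner, 20.9%, whereas the other 6 ran from 40.7% in the chr1 megabase to 47.2% in the chr16 megabase. LNCaP-abl members overlapped a DHT peak in 24.1% of cases (20.7% to 27.8%), beside 27.4% of the whole list and 24.5% after weighting. With lists of equal length this last share was 61.9% and lay above the rest's 57.25%, and with the reciprocal rule it was 5.04% against 8.54%, so its place against the list depended on how peaks were counted.

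**Figure D3:**
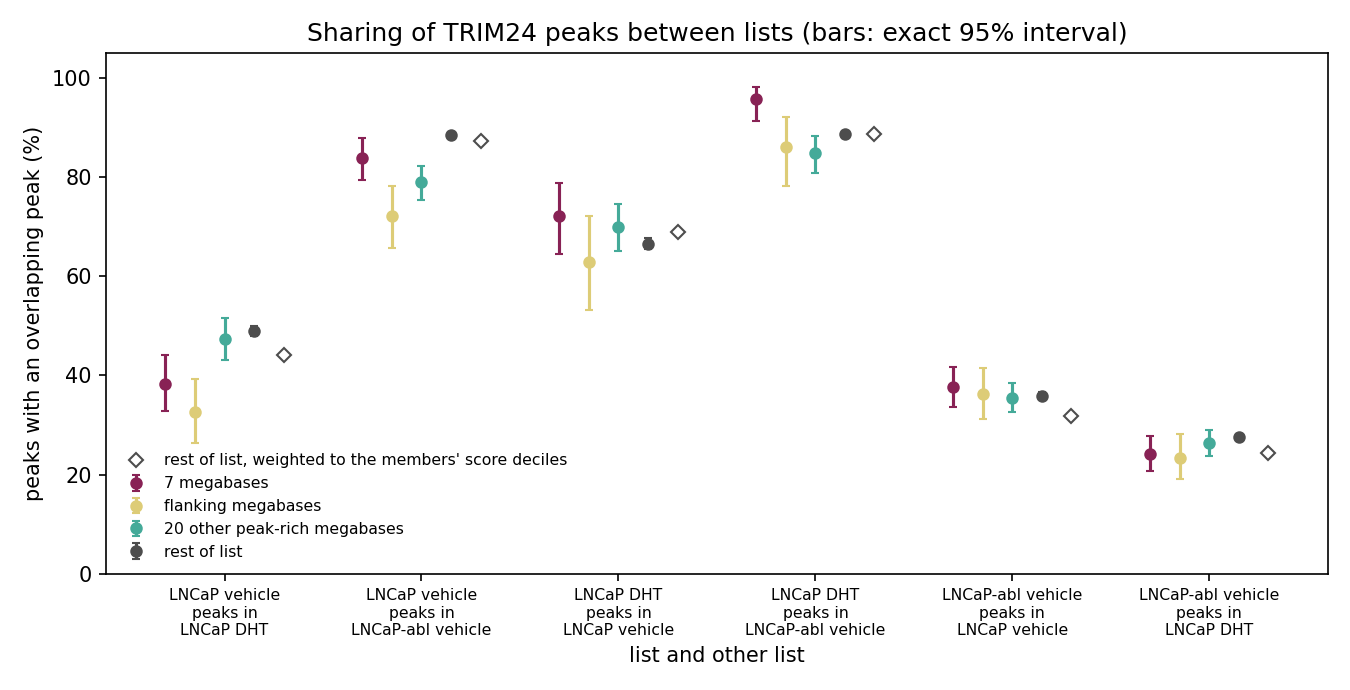
Share of peaks with an overlapping peak in another list (vertical axis, %) for each ordered pair of lists (horizontal axis), for the members, the flanking megabases, the 20 other peak-rich megabases and the rest of the list. Bars are exact 95% intervals and open diamonds are the rest of the list weighted to the members' score deciles. The members' point for DHT peaks in LNCaP-abl, 95.7%, is the highest of the plot, and their point for vehicle peaks in DHT, 38.4%, lies below the rest of the list.

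Sharing with DHT was also split by score, with each list cut into 4 bands of 25%. Of the vehicle members in the lowest band, 15 of 96 overlapped a DHT peak, 15.6% (9.02% to 24.5%), against 26.3% of the rest in that band. The middle bands gave 22.6% (14.2% to 33.05%) and 43.3% (31.2% to 56.0%), against 35.7% and 50.5%. In the highest band 54 of 58 were shared, 93.1% (83.3% to 98.1%), against 82.6%. The members' shares thus lay below the rest in the 3 lower bands, with an interval that held the rest's value in the third, and above it in the highest, where the interval's lower end came close to the rest. The flanks gave 17.9%, 24.0%, 32.2% and 72.2% from the lowest to the highest band, below the rest in all 4. None of these differences was tested.

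The same split of LNCaP-abl members against DHT gave 0.980%, 7.69%, 29.9% and 73.6% from the lowest to the highest band, beside 5.10%, 11.7%, 26.7% and 66.2% of the rest. Only 2 of the 204 LNCaP-abl members in the lowest band had a DHT partner. Against vehicle, LNCaP-abl members were shared at 7.84%, 21.5%, 58.1% and 84.0%, beside 6.43%, 17.0%, 40.2% and 79.6%, above the rest in every band. The interval excluded the rest's value in the second highest band (48.6% to 67.2%) and held it in the other 3. The flanks gave 54.8% in that band. All 58 vehicle members and all 48 DHT members of the highest band overlapped a LNCaP-abl peak. Most of the rest in that band did too, 95.04% in vehicle and 90.1% in DHT. The members' interval began at 93.84% in vehicle and so held the rest's value. In DHT it began at 92.6%, a little above the rest.

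**Figure D4:**
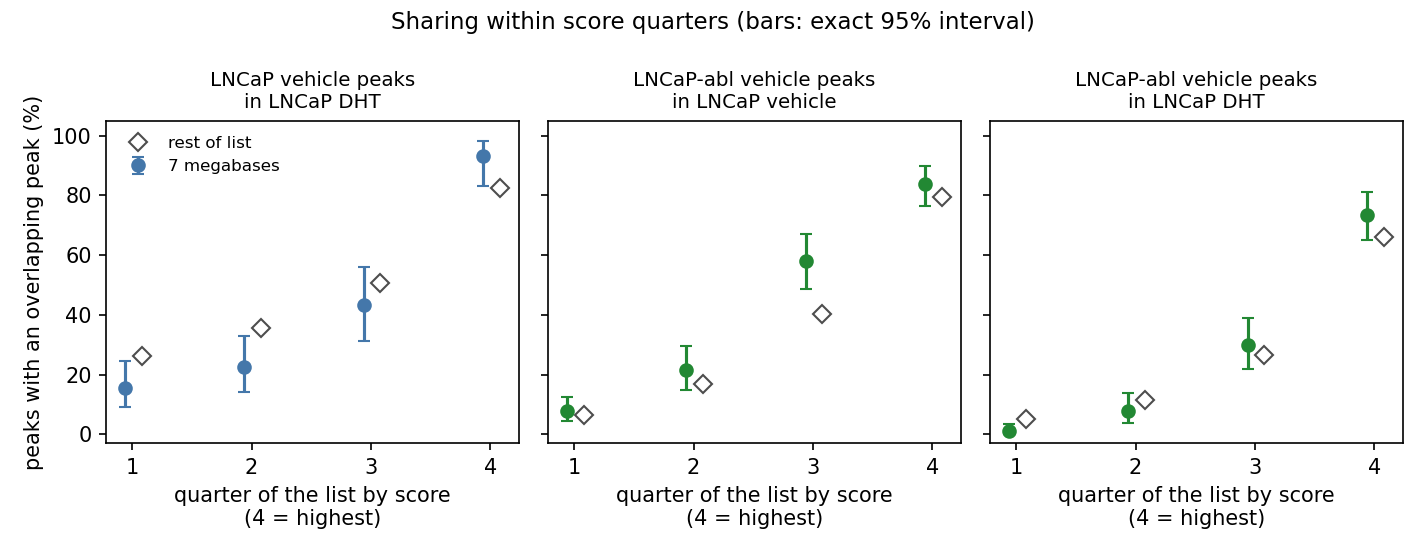
Share of peaks with a partner in another list (vertical axis, %) in each of 4 score bands of 25% of the list (horizontal axis, 4 = highest), for the members (filled, with exact 95% intervals) and the rest of the list (open diamonds). In the left panel the vehicle members shared with DHT go from 15.6% to 93.1%, below the rest in the 3 lower bands and above it in the highest.

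Joining all peaks that overlapped across lists gave 628 regions. All 3 lists held 117 of them, 18.6% (15.7% to 21.9%), beside 19.6% of the 22226 regions of the genome. LNCaP-abl alone held 337, 53.7% (49.7% to 57.6%), beside 53.6%. Those shares lay near the background. With lists of equal length LNCaP-abl alone held 39 member regions, 15.1% (10.98% to 20.1%) beside 17.2% of all regions. Among the better-scoring 50% of each list it held 122, 46.0% beside 50.1%, and all lists together held 57, 21.5% (16.7% to 26.95%) beside 16.7%. With peaks under 1 kb apart joined, LNCaP-abl alone held 186, 42.1% (37.4% to 46.8%) beside 49.5%, so in that setting the members lay below the background. Regions of vehicle alone numbered 47, 7.48% (5.55% to 9.83%) against 3.96% of all regions, regions of DHT alone 6, 0.955% against 2.48%, and regions of DHT with LNCaP-abl 22, 3.50% against 5.68%. Vehicle and LNCaP-abl without DHT shared 98 (15.6%, all regions 13.6%), and both LNCaP lists without LNCaP-abl held 1 region, 0.159% (up to 0.884%) against 1.07%. Counted by peaks, 15.4% of vehicle members had no partner in either other list, against 8.84% of the rest. The flanks gave 24.1% and the 20 other peak-rich megabases 15.1%, so that excess was not particular to the 7.

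The megabases differed in this mix. In the chr16 megabase 22 of 81 regions were held by all 3 lists (27.2%) and 35 by LNCaP-abl alone (43.2%). In chr19 1-2 Mb it was 13 (9.35%) and 95 (68.35%). Neighbouring chr19 0-1 Mb had 10 of 80 in all 3 lists (12.5%) and 11 in vehicle alone, the most of the 7. The chromosome 19 megabases thus had the lowest shares of regions common to all lists, and the other 5 ran from 20.5% to 27.2%.

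LNCaP-abl peaks in regions common to all lists were the strongest and widest, among the members as over the rest of the list. The 117 LNCaP-abl members that overlapped both LNCaP lists had a median width of 1121 bp and a median percentile of 85.2. Such peaks elsewhere had 996.5 bp and 85.35. The 337 without a LNCaP partner had 333 bp and 20.65, against 355 bp and 32.7 for such peaks elsewhere. Of the 337, 10 were in the highest 25% of the list, beside 653 of the 11582 elsewhere. Those partnered by vehicle alone (100 peaks) had 803.5 bp and 61.6, against 772.5 bp and 67.45 elsewhere. Those partnered by DHT alone (22 peaks) had 960 bp and 74.4, against 666 bp and 61.8 elsewhere.

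Vehicle members followed the same order. The 115 with partners in both other lists had a median of 432 bp and percentile 69.85, the 141 with a LNCaP-abl partner alone 250 bp and 31.6, and the 47 with none 200 bp and 19.7. Over the rest of the vehicle list these were 388 bp and 69.85, 259 bp and 38.2, and 201 bp and 25.5. DHT members with both partners (115) had 348 bp and 65.1, those with LNCaP-abl alone (39) 247 bp and 41.6, and the 6 with none 236.5 bp and 4.398. Over the rest of the DHT list these were 343 bp and 58.9, 244 bp and 34.3, and 217.5 bp and 36.2. In every list the members without any partner had the lowest median percentile. Over the rest this held in vehicle and LNCaP-abl but not in DHT. Of the 6 such DHT members, 4 were at or below 8.43 and the other 2 were at 69.95 and 72.8.

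In 87 of the common regions each list had exactly 1 peak. There the median widths were 455 bp in vehicle, 348 bp in DHT and 983 bp in LNCaP-abl. In the 3096 such regions elsewhere they were 384, 344 and 871.5 bp. LNCaP-abl had the widest peak in 81 of 87, and in 2840 of the 3096 elsewhere. The median percentiles were 76.1, 68.85 and 87.0, against 69.85, 60.5 and 83.7 elsewhere. The DHT percentile was above the vehicle one in 37 regions, 42.5%, against 38.95% of 3096 such regions elsewhere. At the larger part of these sites the vehicle percentile was thus the same or higher, as it was elsewhere. The percentiles come from lists of 9744 vehicle and 7105 DHT peaks. They depend on how many weaker peaks each list holds, so they do not compare the strength of binding between conditions.

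The strongest common site of each megabase is given with its scores in all lists. On chr8 the LNCaP-abl peak chr8:145634267-145635376 (1110 bp) scored 678.0 and ranked at 8 in its list, and its partners scored 54.2 in vehicle (rank 88) and 44.8 in DHT (rank 104). On chr1 the peak chr1:1310061-1310987 (927 bp) scored 621.4 (rank 13), with 38.1 in vehicle (rank 186) and 47.2 in DHT (rank 93). On chr19 the peak chr19:1383263-1384301 (1039 bp) scored 592.3 (rank 19), with 113.2 in vehicle and 102.0 in DHT, each at rank 13. The chr19 site was near the top of all 3 lists, and the chr8 and chr1 sites ranked at 186 or better in each.

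The peak chr16:619547-620406 (860 bp) scored 477.7 in LNCaP-abl (rank 57), 37.0 in vehicle (rank 200) and 30.1 in DHT (rank 237). The peak chr11:842214-843117 (904 bp) scored 334.0 (percentile 99.3), with 31.8 (rank 250) in vehicle and 47.6 (rank 90) in DHT. These sites were also high in every list.

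The remaining megabases had weaker top sites. The peak chr9:139622296-139623467 (1172 bp) scored 283.1 in LNCaP-abl (rank 220), and its vehicle partner scored 9.78 (rank 2338) and its DHT partner 15.6 (rank 775). The peak chr19:662684-663948 (1265 bp) scored 266.9 (rank 253), with 15.1 in vehicle (rank 926) and 17.8 in DHT (rank 584). By percentile within the list, DHT was above vehicle at the chr9 site (89.1 against 75.9), chr19 0-1 Mb (91.8 against 90.5), chr11 (98.75 against 97.4) and chr1 (98.7 against 98.1). It was below vehicle at the chr16 site (96.7 against 97.95) and chr8 (98.55 against 99.1). At chr19 1-2 Mb the site ranked at 13 in both lists. Its percentiles, 99.83 in DHT and 99.88 in vehicle, differed only through the lengths of the lists. Apart from chr9 these were small gaps near the top of both lists.

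LNCaP-abl peaks without any LNCaP partner were lower even at their best. The strongest was chr11:518478-519156 (679 bp), with a score of 177.1 (rank 725), 15.6 kb from the nearest vehicle peak and 35.8 kb from the nearest DHT peak. In the chr9 megabase it was chr9:139922171-139923500 (1330 bp) with 96.2 (rank 3073). The other 5 megabases had best scores between 63.5 and 79.4, at chr19:1205416-1206322 (79.4), chr8:145577745-145578676 (76.5), chr16:278859-279603 (76.4), chr19:679671-680846 (71.9) and chr1:1550476-1552053 (63.5). In 6 of the 7 megabases the best LNCaP-abl peak without a LNCaP partner thus ranked at 3073 or lower in its list.

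Between the LNCaP lists, the strongest vehicle members without a DHT peak were chr19:409117-409414 (score 14.5, 50.8 kb from the nearest DHT peak), chr16:284795-285097 (10.7, 64.4 kb) and chr11:189406-190018 (10.2, 18.7 kb). All 3 overlapped a LNCaP-abl peak, with scores of 76.0, 43.2 and 28.8. The strongest DHT members without a vehicle peak were chr19:1112154-1112379 (12.1), chr11:568631-568884 (11.4) and chr1:1821891-1822202 (10.7), with LNCaP-abl partners of 129.6, 100.5 and 85.6. The last of these lay 0.048 kb from a vehicle peak, so it is a site of both lists when partners under 1 kb away count. Members held by 1 LNCaP list alone thus scored at most 14.5 in LNCaP, and these 6 were all present in the full LNCaP-abl list. With lists of equal length the chr16 and chr11 vehicle members lost that partner. A LNCaP-abl partner was common among such peaks, in 141 of 188 vehicle and 39 of 45 DHT members. Over the rest, 3988 vehicle peaks without a DHT peak had one and 834 did not. For DHT peaks without a vehicle peak it was 1777 and 544.

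The strongest vehicle members without a LNCaP-abl peak were chr8:145180620-145180950 (score 9.13), chr19:1394231-1394556 (8.14) and chr19:310375-310697 (7.91). The second of these was 1.06 kb from a LNCaP-abl peak, and the last also had a DHT partner, with a score of 8.175. Of the 49 vehicle members without a LNCaP-abl partner, 19 lay under 1 kb and 36 under 5 kb from one, with a median distance of 1.28 kb against 11.8 kb for such peaks elsewhere. Many unshared vehicle members were thus close neighbours of LNCaP-abl peaks, in megabases where such peaks are closely set.

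Crowding followed from the counts by which the megabases were chosen and is given as a description. The next peak of the same list was under 5 kb away for 163 vehicle members, 53.4% (47.7% to 59.1%), beside 36.3% of the whole list, and for 426 LNCaP-abl members, 74.0% (70.2% to 77.5%), beside 35.7%. For DHT it was 47 members, 29.2% (22.3% to 36.9%), beside 28.8%. The DHT members' share thus lay near that of the DHT list at large, although their median gap of 9.69 kb was shorter than the 46.1 kb of the rest. The median gaps were 4.15 kb in vehicle (rest 25.04 kb) and 1.11 kb in LNCaP-abl (rest 15.35 kb). In the 20 other peak-rich megabases 46.1% of DHT peaks had such a neighbour, in the flanks 29.6%.

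**Figure D5:**
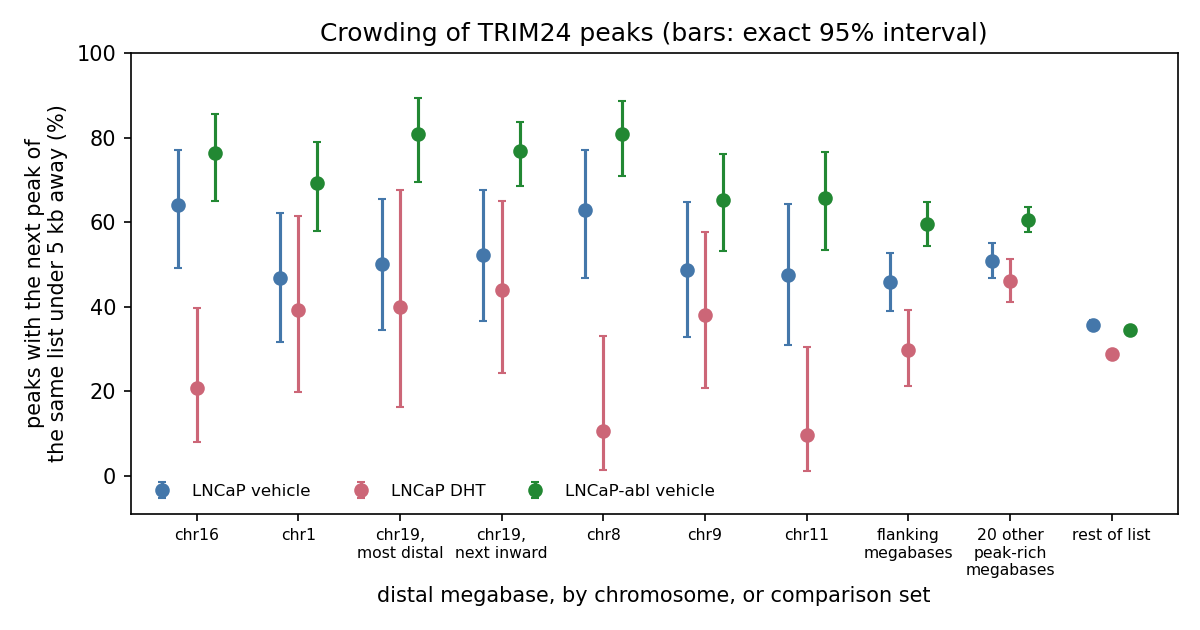
Share of peaks whose next peak in the same list was under 5 kb away (vertical axis, %), for each megabase, the flanks, the 20 other peak-rich megabases and the rest of the list (horizontal axis), with exact 95% intervals. LNCaP-abl points stand highest in all 7 megabases, from 65.3% to 80.95%, and DHT points stand lowest, down to 9.52% in the chr11 megabase.

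Within the megabases the lists gathered in many of the same stretches of 100 kb. In the chr16 megabase the stretch from 700 to 800 kb held 14 peaks in vehicle, 10 in DHT and 23 in LNCaP-abl, the most in every list. In the chr1 megabase the stretch from 1200 to 1300 kb held 15, 7 and 22, and in chr19 1-2 Mb the stretch from 1200 to 1300 kb held 11, 8 and 28, again the most in every list. Elsewhere the fullest stretch differed between lists. In chr19 0-1 Mb the stretch from 500 to 600 kb held 12 vehicle and 19 LNCaP-abl peaks but 2 DHT peaks, and in the chr8 megabase the stretch from 145700 to 145800 kb held 10, 3 and 24. No list had a peak midpoint between 145300 and 145500 kb of chr8 or in the first 200 kb of chr19, so the lists shared some of their empty stretches as well. Whether reads could be mapped in those stretches was not checked.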

How the data were processed

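TRIM24 ChIP-seq peak lists of 3 conditions were used, 1 library each, with groups taken from the labels. The authors' lists use hg19, and Bowtie 0.12.7, MACS2 2.0 and FastQC 0.10.0 are named per the submitters' processing notes. For read filters, the score limit and the use of input as control, nothing is stated in the sources used here. Each list has 5 columns, and the last holds the deposited score, taken here as a −log10 value made by the authors with MACS2 from the p or the q of each peak. The lists have no header that names the scale. It grows with depth, which is unknown, and it was used only to rank, describe and filter peaks within a list.

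Positions are printed 1-based, so 1 was added to each deposited start. Overlaps of at least 1 bp were found with Python 3.11.15 (numpy 2.4.6, pandas 2.3.3, scipy 1.17.1). That code was checked against bedtools 2.31.1 and tested on simulated data with planted partners. Figures were drawn with matplotlib 3.10.9. Comparison sets were the rest of each list, the megabases next to the 7, and the 20 other megabases with the most peaks, of which chr9 140-141, chr16 1-2, chr19 2-3 and chr8 144-145 Mb are also flanks. The RefSeq table of GRCh38.p14 gave gene names, order and spacing only.

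Members and lists were chosen with earlier results of these data known. The peaks named are, by rule, the highest-scoring LNCaP-abl peak of each megabase with partners in both LNCaP lists, the highest-scoring one with no LNCaP partner, the 3 highest-scoring unshared peaks of each kind given and the widest peak of each list. The choice of 100 kb stretches followed a look at their values. No test was made, since each condition had a single library. Alternatives were lists of equal length, the better-scoring 50%, a reciprocal overlap of 50%, peaks set to 400 bp, joining across gaps under 1 kb, ranks within the chromosome and leaving out each megabase.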

Additional observations from a re-analysis of the deposited data

How the results depend on the processing

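Peaks and megabases are not replicates, the depth is unknown, and intervals cover counting error only. No paired analysis was possible because there was 1 library for each condition. Counting any overlap with the window and ranking within the chromosome kept the members' counts, widths and ranks within their spread.

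The 6 shares below are first those of vehicle members with a DHT and with a LNCaP-abl peak, next those of DHT members with a vehicle and with a LNCaP-abl peak, and last those of LNCaP-abl members with a vehicle and with a DHT peak. With lists of equal length, members numbered 197 in vehicle and 176 in LNCaP-abl, their median widths were 359 and 1113 bp, the shares were 50.8%, 68.0%, 62.7%, 77.0%, 64.2% and 61.9%, and 39 regions were held by LNCaP-abl alone. With the better-scoring 50% of each list, members numbered 127, 91 and 242 with median widths of 421, 383 and 995 bp. Vehicle in DHT was then 48.8%, DHT in LNCaP-abl 87.9% and LNCaP-abl in DHT 31.8%, with 57 regions in all lists and 122 in LNCaP-abl alone. Over the rest of the lists the 6 shares with equal length were 57.7%, 69.4%, 58.5%, 66.1%, 60.9% and 57.25%. With the better-scoring 50% the shares named were 46.4%, 77.9% and 25.65% over the rest. Both settings use fewer peaks by construction.

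A reciprocal overlap of at least 50% gave 24.3%, 19.3%, 46.0%, 18.0%, 10.2% and 5.04%. A narrow peak inside a much wider one cannot meet that rule, and 12 of the 26 named peaks lost a partner under it, against 2 with lists of equal length and 2 with peaks of 400 bp. Peaks set to 400 bp gave 73.4% for vehicle in LNCaP-abl (rest 78.7%) and 79.5% for DHT in LNCaP-abl (rest 78.8%). Joining peaks less than 1 kb apart left 186 regions of LNCaP-abl alone. Counting partners less than 1 kb away, a setting chosen after seeing the data like the weighting by score deciles, gave 51.5%, 90.2% and 80.75% for the first 3 shares and 52.6% and 30.2% for the last 2. Over the rest of the lists these shares were, in the same order, 59.3%, 91.0%, 75.5%, 41.0% and 31.4%. Why the shares moved under these settings was not tested.

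Leaving out each megabase in turn moved LNCaP-abl in vehicle between 36.3% and 42.5%, the latter without chr19 1-2 Mb, and moved none of the other shares, widths or ranks beyond their intervals.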
